A study of Mus musculus with 3 samples.

Results

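The Th9 and Th2 cultures of mouse CD4 T cells were compared through the 2 microarrays that carry them, of 3 in the series. For a gene, the comparison is the log2 ratio of the Th9 array (Cy5, Th9 cells, over Cy3, naive cells) minus the same ratio of the Th2 array. It was taken where both dyes of both arrays gave a signal well above background, which held for 10460 of the 19747 genes named on the array. For 551 genes a naive channel was at background while both cultures were above it, and there the Cy5 signals of the arrays were compared directly.

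Naive CD4 T cells were isolated with magnetic beads from the spleens of C57BL/6 mice aged 6 to 8 weeks, and every culture received plate-bound anti-CD3e and soluble anti-CD28 (10 µg/ml each) for 3 days. The Th9 medium held mouse IL-2 (0.2 ng/ml), mouse IL-4 (1 ng/ml), human TGF-β1 at 2 ng/ml and an antibody to IFN-γ at 5 µg/ml. The Th2 medium held more IL-2 (1 ng/ml) and more IL-4 (5 ng/ml), no TGF-β1, and less of the antibody to IFN-γ (2 µg/ml). The 4 differences between the media cannot be told apart. Values of the third culture, iTreg, are given beside the others where they help to place a gene. Its medium held IL-2 (0.4 ng/ml), TGF-β1 at 5 ng/ml, and antibodies to IFN-γ and to IL-4 (5 µg/ml each). Each culture was measured on 1 array and the labels describe each as biological replicate 1, so no test between cultures was possible and none was run.

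IL-4 acts through the transcription factor STAT6 and induces GATA3, the factor that sets up the Th2 fate and its cytokines IL-4, IL-5 and IL-13. TGF-β acts through receptor kinases and SMAD proteins. Alone it favours the regulatory factor Foxp3, while together with IL-4 it diverts activated T cells to the Th9 fate, named for its cytokine IL-9. Th2 and Th9 cells both take part in allergic inflammation and in immunity to worms.

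A difference was called when it reached 2-fold, a log2 difference of 1 in either direction. In all, 134 genes were higher in Th9 (1.28% of those measured) and 144 were lower (1.38%), together 2.66%. These shares are the background beside which the counts of list members below are to be read. At least 4-fold differences were seen for 21 higher and 15 lower genes. The profiles were alike for most genes, since 89.3% of the measured genes lay within 0.5 log2 units of each other. The naive channels of the same arrays give a measure of array noise, which holds no variation between cultures, and the labels do not say whether they share 1 RNA extract. Their difference had an SD over genes of 0.086 log2 units, against 0.379 for the cultures, and only 1 gene (0.00956%) reached 2-fold in it. These measures are unlike, since the naive one is of Cy3 alone. The culture one is of Cy5 to Cy3 ratios and holds the noise of both dyes. The error after ± is the scanner software's error of the Cy5 to Cy3 ratio, combined over both arrays. Its median over the measured genes was 0.314 log2 units. Where Cy5 signals were compared directly the same error is given. There it includes the naive channel and is not the error of the Cy5 difference itself. The difference was larger than 2 such errors for 121 of the 134 higher genes and for 140 of the 144 lower genes.

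**Figure D1:**
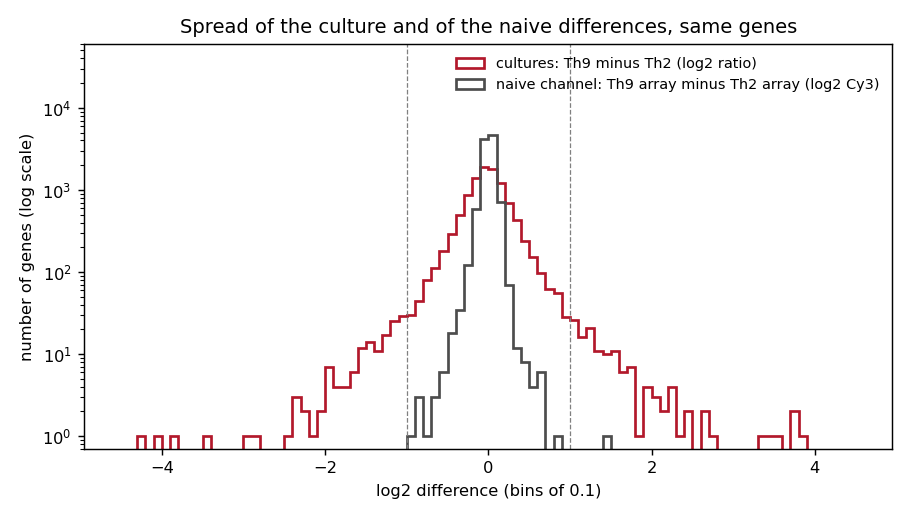
Number of genes (log scale) in bins of 0.1 log2 units, for the Th9 minus Th2 difference of the cultures (red) and for the naive channel of the Th9 array minus that of the Th2 array (grey), over the same 10460 genes. Dashed lines mark 2-fold. The culture differences, of ratios of both dyes, had an SD of 0.379, and the naive ones, of Cy3 alone, 0.086.

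Against naive cells the higher genes split by where the change lay. Of the 134, 48 were at least 2-fold above naive in Th9 and within 2-fold of it in Th2, and 29 were above naive in both. A further 23 were below naive in Th2 and within 2-fold of it in Th9, so that Th9 cells stood higher by staying nearer to the naive level. For the 144 lower genes, 48 were above naive in Th2 only, 27 in both, 27 were below naive in Th9 only and 30 below it in both. For comparison, 31.5% of all measured genes were at least 2-fold from naive in Th9 and 30.0% in Th2, counting both directions.

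**Figure D2:**
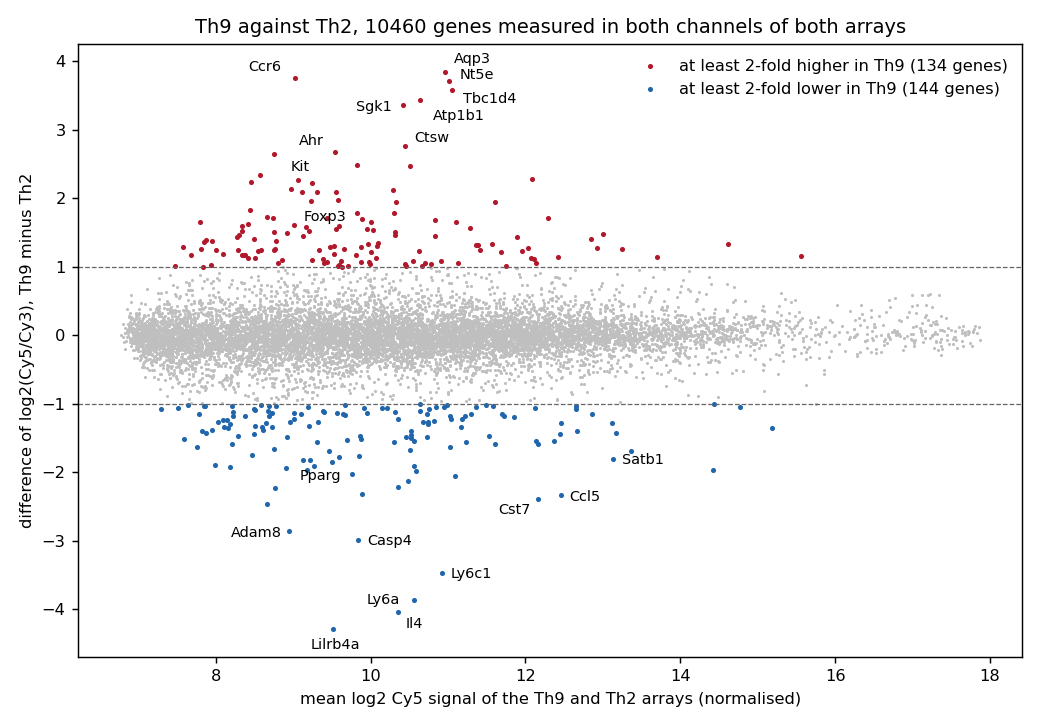
Difference of log2(Cy5/Cy3), Th9 minus Th2, against the mean normalised log2 Cy5 signal of both arrays, 1 point per gene, with genes past 2-fold in red (134 higher in Th9) and blue (144 lower in Th9). Aqp3, Ccr6 and Nt5e lie at the top and Lilrb4a, Il4 and Ly6a at the bottom.

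Of the genes chosen to mark the contrast, Il9 and Nt5e were higher in Th9 than in Th2, and Il4 was lower. Il9 had a raw Cy5 intensity of 12172 in Th9 cells and 598 in Th2 cells, with 71 in iTreg cells. Its naive channel was at background, and the direct Cy5 difference was 4.24 ± 1.05, or 19.0-fold higher in Th9. The dim naive channel moved in the same direction, and the ratios against naive differed by less, 3.73. Th2 cells therefore carried Il9 signal above background, and iTreg cells were near the background level. Il4 showed the opposite order, with a raw Cy5 intensity of 303 in Th9 cells and 6467 in Th2 cells, and 60.3 in iTreg cells. Its log2 ratio against naive was 1.04 in Th9 and 5.08 in Th2, a difference of -4.04 ± 0.67. Nt5e encodes CD73, the surface enzyme that makes adenosine from AMP. Its log2 ratio against naive was 2.50 in Th9 and -1.22 in Th2, a difference of 3.71 ± 0.40 (13.1-fold). In iTreg cells the ratio was 3.24, above that of Th9, so Nt5e is not particular to Th9 cells. None of the 4 measured T cell markers reached 2-fold (median -0.09). Cd4 (difference 0.16 ± 0.30) and Cd3e (0.02 ± 0.38) lay above 0, and the others lay below it, lowest Cd28 at -0.51.

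The list of type 2 and helper cytokines had 14 members. In the 4 that were measured in both channels of both arrays, all were at least 2-fold lower in Th9 (Il4, Il3, Il2 and Il24, median -1.68, against a median of -0.02 over all measured genes). With no filter on dim probes the median of the list was -0.75. Il3, a growth factor for basophils and mast cells, had a log2 ratio against naive of 1.44 in Th9 and 3.34 in Th2 (difference -1.91 ± 0.61). Il2 had 0.05 in Th9 and 1.52 in Th2 (-1.46 ± 0.37), and Il24 had 0.21 in Th9 and 1.24 in Th2 (-1.03 ± 0.40). All 3 were thus above naive by over 2-fold in Th2 cells, while in Th9 cells only Il3 was.

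By their Cy5 signals alone, 4 more members could be compared, and Il9 was the only one of them higher in Th9. Il13, which drives mucus and IgE responses, had a raw Cy5 intensity of 210 in Th9 cells and 3680 in Th2 cells, with 124 in iTreg cells. Its Cy5 difference was -3.89 ± 0.69 (14.8-fold lower in Th9). The dim naive channel of Il13 moved in the same direction, and its ratios against naive differed by less, -3.15. Il5, the eosinophil growth factor, had 311 in Th9 and 689 in Th2, a Cy5 difference of -1.06 ± 0.78, but its ratios against naive differed by only -0.67, short of 2-fold. Csf2, encoding GM-CSF, did not reach 2-fold (-0.90 ± 0.72). Il4 and Il13 were thus further apart between the cultures than Il5. Il21, a cytokine of follicular helper T cells, was above background in Th2 cells only, with a raw Cy5 intensity of 68 in Th9 cells and 1611 in Th2 cells, so that it was at least 16.5-fold lower in Th9. Il10 was also above background in Th2 only, but with a bound below 2-fold. The other 4 members were at background in both cultures.

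The Il4 and Il9 promoters are shown because these cytokine genes name the contrast and differ in opposite directions. The sequences are the 250 bases before the start site, from RefSeq on build GRCm38.p6, read 5′ to 3′ in the direction of transcription. The Il9 start lies on the minus strand of chromosome 13 (chr13:56482258-56482507). The Il4 sequence belongs to the second of 2 RefSeq starts, on the minus strand of chromosome 11 (chr11:53618666-53618915). Capitals mark matches to the STAT6 consensus, a palindrome with the 4-base spacing that STAT6 prefers.
Il9: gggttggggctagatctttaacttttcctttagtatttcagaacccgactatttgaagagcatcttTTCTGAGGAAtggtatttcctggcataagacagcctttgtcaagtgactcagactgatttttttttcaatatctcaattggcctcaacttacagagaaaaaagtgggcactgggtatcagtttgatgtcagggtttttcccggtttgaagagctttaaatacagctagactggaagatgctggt
Il4: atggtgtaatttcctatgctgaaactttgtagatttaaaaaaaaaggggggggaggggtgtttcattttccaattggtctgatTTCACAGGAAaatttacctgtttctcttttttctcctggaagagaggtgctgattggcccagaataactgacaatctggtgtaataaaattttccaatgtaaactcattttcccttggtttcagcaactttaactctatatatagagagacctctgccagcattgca

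Both sequences shown held 1 match, starting 184 bases before the Il9 start and 167 bases before this Il4 start. The first Il4 start is not shown, and its matches are not described here. The consensus occurred in the 250 bases of 2.94% of the higher genes with a RefSeq promoter (102 genes), 9.32% of the lower genes (118 genes) and 5.52% of all measured genes (8455 genes), counting either strand. A match is a description of these letters and not evidence of binding.

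Along chromosome 11, the genes around Il4 differed together. In gene order, Shroom1 differed by -0.04 ± 0.31, Septin8 by -1.47 ± 0.41, Kif3a by -1.26 ± 0.36, Il4 by -4.04, Il13 by -3.89 (Cy5 signals), Rad50 by -0.82 ± 0.37 and Il5 by -1.06 (Cy5 signals). On the far side, Irf1 differed by -0.34 ± 0.38 and Slc22a5 by 0.12 ± 0.31. The stretch from Septin8 to Il5 was therefore lower in Th9 than in Th2 at all 6 of its protein-coding genes named on the array. Any gene of the stretch without a named probe was not seen. Rad50 did not reach 2-fold, and Il5 did so by its Cy5 signals only. The 6 included 3 that encode no cytokine: the septin Septin8, the kinesin subunit Kif3a and the DNA repair protein Rad50. The last of these hosts the known locus control region of the type 2 cytokines in its introns. In Th2 cells Septin8, Kif3a and Rad50 had log2 ratios against naive of 2.43, 2.05 and 2.12, whereas in Th9 cells they had 0.96, 0.79 and 1.30. These genes were picked after the values were seen, as neighbours of Il4.

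**Figure D3:**
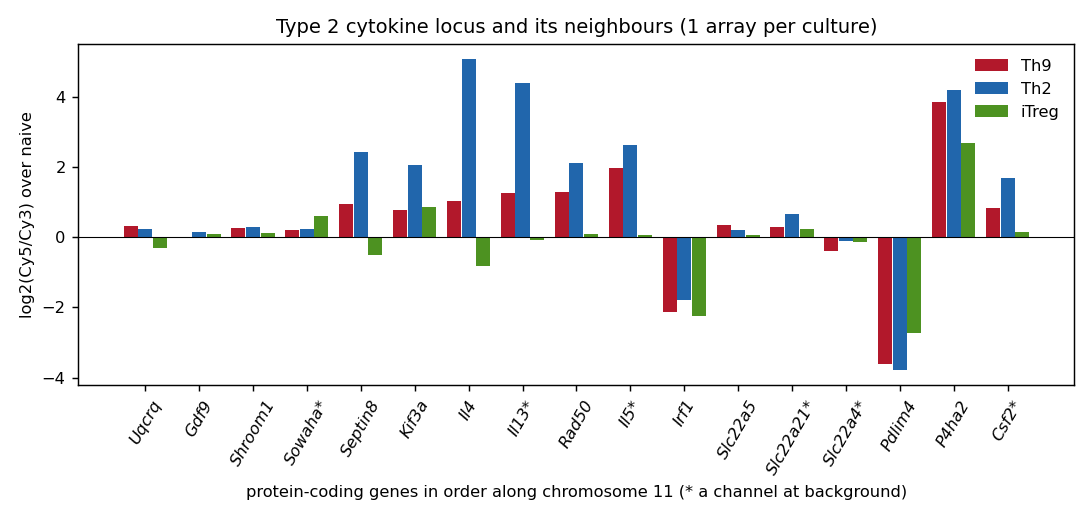
Log2(Cy5/Cy3) over naive cells in Th9 (red), Th2 (blue) and iTreg (green) cultures, for protein-coding genes named on the array, in their order along chromosome 11. Bars start at 0 and an asterisk marks genes with a channel at background. Septin8, Kif3a, Il4, Il13, Rad50 and Il5 stand lower in Th9 than in Th2, and Shroom1 and Slc22a5 stand about level.

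Other differing genes also lay side by side. Of 10438 pairs of neighbouring measured genes, 15 had both members at least 2-fold lower in Th9 and 5 had both at least 2-fold higher, while 4 were called in opposite directions. Among 555 neighbours of called genes, 40 (7.21%) were called the same way, beside a background of 1.28% higher and 1.38% lower. The lower pairs included Ly6a with Ly6c1, Gzmc with Gzmb, Casp1 with Casp4, Btla with Cd200, and Gbp2 with Gbp3. Several of these are close copies of each other, so a probe may read its neighbour's RNA, which was not tested.

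Of the regulators and receptors of Th2 cells, 17 were measured, 1 was at least 2-fold higher in Th9 and 2 were lower (median -0.17). Gata3 itself differed by only -0.39 ± 0.33, with log2 ratios against naive of 1.01 in Th9 and 1.40 in Th2. Gfi1, a repressor that aids Th2 cell growth, differed by -0.41 ± 0.40. The chemokine receptor genes Ccr4 and Ccr8, typical of Th2 cells, differed by -0.17 ± 0.44 and 0.40 ± 0.54. Gata3, Gfi1, Ccr4 and Ccr8 thus lay within 2-fold, and 3 other members did not. Pparg, a lipid-sensing nuclear receptor used by Th2 and Th9 cells, had log2 ratios of 1.31 in Th9 and 3.34 in Th2 (difference -2.03 ± 0.51). Ecm1, a secreted protein that helps Th2 cells leave the lymph node, had 0.18 in Th9 and 1.87 in Th2 (-1.69 ± 0.34). Maf, an activator of Il4 and of Il10 and Il21, was the member higher in Th9, with 0.72 in Th9, -0.99 in Th2 and 0.93 in iTreg cells (1.71 ± 0.33).

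Of the 21 measured factors tied to the Th9 fate, 1 was higher and 3 were lower (median -0.13). Ahr, the ligand-activated aryl hydrocarbon receptor, had a log2 ratio of 3.01 in Th9, 0.34 in Th2 and 1.11 in iTreg cells, a difference of 2.67 ± 0.44 (6.37-fold) between Th9 and Th2. Of its partners and targets, 4 were measured with Ahr included, and no other passed 2-fold (median 0.16, lowest Tiparp at -0.25). Cyp1a1, a classical target compared by Cy5 signals, differed by 1.08 ± 0.87. Batf, the AP-1 factor that partners IRF4, was lower in Th9 at 0.36, against 1.64 in Th2 (-1.28 ± 0.33). The inhibitors of E proteins Id2 and Id3 were lower as well, by -1.18 ± 0.30 and -1.08 ± 0.31. Irf4 (-0.31 ± 0.62), Bhlhe40 (-0.12 ± 0.68) and Irf8 (0.58 ± 0.39) differed by less than 2-fold, with Irf4 standing far above naive in both cultures (3.56 in Th9 and 3.87 in Th2). Spi1, which encodes PU.1, was at background in both cultures.

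In the TGF-β pathway, 27 members were measured and 20 of them lay above 0, with a median of 0.38. Of these 27, 2 passed 2-fold, both higher in Th9, and by Cy5 signals alone 1 more member was compared and was at least 2-fold lower. Above background in 1 culture only were 2 members in Th9 and 1 in Th2. Ldlrad4, an inhibitor of SMAD signalling, was among those in Th9 and at least 4.50-fold higher there. Skil, a SMAD-bound repressor that TGF-β induces, had log2 ratios of 1.49 in Th9, -0.16 in Th2 and 1.90 in iTreg cells (1.65 ± 0.32). Tgfbr1, the type I receptor kinase, had 1.44 in Th9, -0.03 in Th2 and 1.17 in iTreg cells (1.47 ± 0.32). The feedback genes Smad7 (0.69 ± 0.37) and Pmepa1 (0.47 ± 0.31) differed by less than 2-fold, and Tgfb1 by 0.61 ± 0.31. Tgfbr1 rests in part on its probe, since the mean over its measured probes gave 1.15.

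CD73 was the gene with the largest difference on the Treg and adenosine lists, and its promoter is shown for that reason (the 250 bases before the start, plus strand, GRCm38.p6, chr9:88327359-88327608). Capitals mark the SMAD-binding letters CAGACA, here on the opposite strand.
Nt5e: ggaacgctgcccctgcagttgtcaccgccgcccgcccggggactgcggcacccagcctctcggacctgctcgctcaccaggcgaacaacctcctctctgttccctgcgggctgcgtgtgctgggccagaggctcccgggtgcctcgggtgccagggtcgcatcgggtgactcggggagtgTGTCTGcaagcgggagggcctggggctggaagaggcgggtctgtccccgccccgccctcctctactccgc

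The match starts 70 bases before the start site. The same 6 letters occurred in 22.5% of the higher genes, 20.3% of the lower genes and 15.7% of all measured genes, so they are common in promoters of this length.

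Of 21 measured Treg genes, 4 were higher and 2 were lower in Th9 (median 0.23). Foxp3, the master regulator of Treg cells, had a log2 ratio of 1.28 in Th9, -0.68 in Th2 and 3.49 in iTreg cells. The Th9 level thus stood 1.96 ± 0.33 above Th2 (3.89-fold) and below that of iTreg cells. Socs2, a feedback inhibitor of cytokine signalling, had 4.60 in Th9, 3.27 in Th2 and 2.21 in iTreg cells (1.33 ± 0.69), highest in Th9. Tnfrsf1b, the TNF receptor 2 gene, differed by 1.13 ± 0.33, near naive in Th9 (0.03) and below it in Th2. Ikzf2 (0.98 ± 0.33), Ctla4 (0.90 ± 0.61) and Il2ra (0.23 ± 0.45) did not reach 2-fold. The members lower in Th9 were Gzmb, encoding granzyme B (-1.54 ± 0.37), and the inhibitory receptor gene Tigit (-1.27 ± 0.42). On the adenosine list, Nt5e was the only one of 10 measured members past 2-fold, and the list's median was -0.27.

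Genes known from Th17 cells had the highest median of the lineage lists, 0.73 over 13 measured members, 6 of them higher and 2 lower. Ccr6, the receptor for CCL20, had a log2 ratio of 1.64 in Th9, -2.11 in Th2 and 4.78 in iTreg cells (3.75 ± 0.46, 13.5-fold). Sgk1, a salt- and glucocorticoid-induced kinase, had 0.04 in Th9, -3.32 in Th2 and -2.68 in iTreg cells (3.36 ± 0.45). It differed from Ccr6 in that only the Th9 culture kept the naive level. Tmem176b, encoding a small membrane protein, had 1.08 in Th9, -0.89 in Th2 and -0.53 in iTreg cells (1.97 ± 0.33). The nuclear receptor gene Rora differed by 1.65 ± 0.43 and was above naive in both cultures, at 2.75 in Th9. Ahr and Maf, described above, were the other members higher in Th9. Tmem176a, the close relative of Tmem176b, was above background in Th9 only and at least 4.65-fold higher there. Il23r also was above background in Th9 only, but its naive channel moved in the same direction by over 0.5 log2 units. Socs3 (-1.15 ± 0.30) and Il12rb1 (-1.07 ± 0.52) were lower in Th9. Several members are shared with the Th9 and Treg lists, so the counts are not independent of each other.

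Transport genes held 4 of the 6 highest differences among the 10460 genes with ratios on both arrays, on a list of 31 measured members with no other member past 2-fold. Aqp3, a water and glycerol channel, had log2 ratios of 3.01 in Th9, -0.84 in Th2 and 2.20 in iTreg cells (3.85 ± 0.42, 14.4-fold). Tbc1d4, a Rab GTPase-activating protein of glucose transporter trafficking, had 2.92 in Th9, -0.66 in Th2 and 2.86 in iTreg cells (3.58 ± 0.40). Atp1b1, the beta subunit of the sodium pump, had -0.53 in Th9, -3.96 in Th2 and 0.92 in iTreg cells (3.43 ± 0.49). Aqp3 and Tbc1d4 were therefore above naive in both cultures with TGF-β1, whereas Atp1b1 was far below naive in Th2 cells. Sgk1 was the fourth. The list's median was -0.03, near that of all genes, and its members were in part chosen for this pattern.

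**Figure D4:**
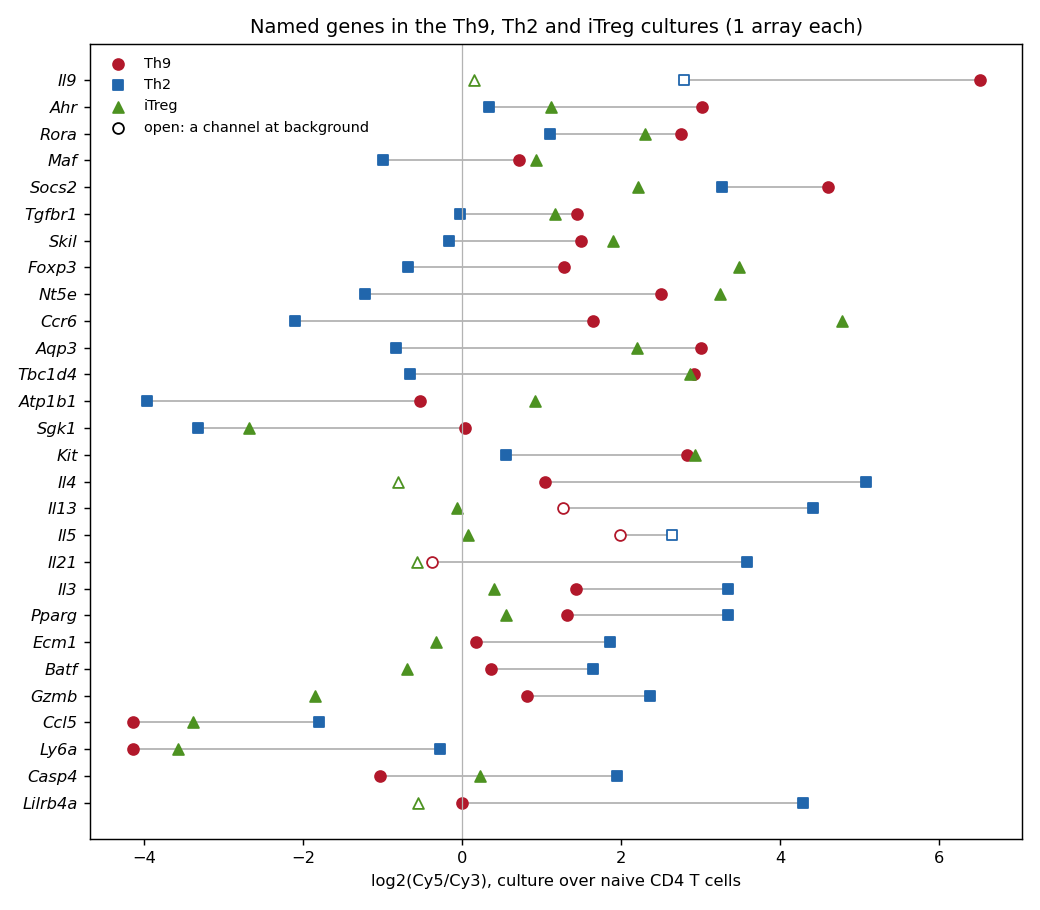
Log2(Cy5/Cy3) over naive cells of 28 named genes in Th9 (circles), Th2 (squares) and iTreg (triangles) cultures, with a grey line joining Th9 and Th2 and open symbols where a channel was at background. Genes from Il9 to Kit lie to the right in Th9, and genes from Il4 to Lilrb4a lie to the right in Th2.

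The rest of the 20 highest differences came from varied functions. Ctsw, encoding the protease cathepsin W, differed by 2.76 ± 0.38, with log2 ratios of 0.36 in Th9, -2.40 in Th2 and 1.33 in iTreg cells. Kit, the stem cell factor receptor, differed by 2.27 ± 0.45, with 2.83 in Th9, 0.55 in Th2 and 2.93 in iTreg cells. Cd38, an enzyme that breaks down NAD, differed by 2.34 ± 0.40. In all 3 the iTreg value also was above the Th2 value. Serpinc1, which encodes antithrombin, reached 4.26 in Th9, 1.77 in Th2 and 2.58 in iTreg cells (2.49 ± 0.67), and was above naive in every culture. Drc1, a dynein regulatory gene of cilia, stayed at 0.02 in Th9 but was at -2.11 in Th2 and -1.17 in iTreg cells (2.13 ± 0.38). Apol9b, of the apolipoprotein L family, differed by 2.65 ± 0.39 and its close relative Apol9a by 2.08 ± 0.34. The other 7, Emp1, Cldnd1, Sardh, Camk2n1, Adam19, Acsbg1 and Sestd1, differed by 2.09 to 2.47.

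Kit is also a mast cell marker. Of the other 6 mast cell and basophil markers, Mcpt8, Fcer1a, Cpa3, Gata2 and Prss34 were at background in both cultures, and Ms4a2 was above it in Th9 only with a naive channel that moved by 1.22 in the same direction. Among myeloid markers, S100a9 was 1.40 ± 0.66 higher in Th9 (-2.85 in Th9 and -4.24 in Th2 against naive), while Lyz2, Cd14 and S100a8 were at background in both culture channels and Itgam (-0.03) and Csf1r (-0.01) were alike. Adgre1 was above background in Th9 only and Itgax in Th2 only, both with bounds below 2-fold. Hbb-bt, a haemoglobin gene chosen after its value was seen, was 1.83 ± 0.40 higher in Th9. The B cell marker Cd79b differed by -0.05.

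Of 17 measured genes of the response to IL-4 and STAT6, 3 were lower in Th9 and none was higher (median -0.39). Satb1, a chromatin organiser, had log2 ratios of -2.41 in Th9, -0.61 in Th2 and -1.72 in iTreg cells (-1.80 ± 0.36). Cd200 differed by -1.29 ± 0.43 and Casp6 by -1.02 ± 0.31. The gene for the IL-4 receptor chain, Il4ra, had -1.30 in Th9 and -0.53 in Th2 (-0.78 ± 0.32). Responses to IL-2 and STAT5 were mixed, with 2 of 28 members higher (Phlda1, 1.94 ± 0.33, and Socs2) and 4 lower (Gzmb, Il7r, Il2 and Socs3, median of the list -0.20).

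Genes of Th1 and cytotoxic cells were lower in Th9 for 6 of 23 measured members and higher for 1, Ctsw (median -0.25). Ccl5, the chemokine RANTES, had log2 ratios of -4.15 in Th9, -1.81 in Th2 and -3.39 in iTreg cells (-2.34 ± 0.51). Gzma, encoding granzyme A, had -4.35 in Th9, -2.80 in Th2 and -6.48 in iTreg cells (-1.54 ± 0.56). Both were below naive in every culture, most in the cultures with TGF-β1. Gzmb and Gzmc behaved otherwise, since they were above naive in Th2 (2.36 and 2.05) and near it in Th9 (0.82 and 0.11). Ccl4 differed by -1.69 ± 0.32. Ifng was below naive in both, at -2.55 in Th9 and -1.42 in Th2 (-1.13 ± 0.45), and Tbx21, encoding T-bet, differed by -0.58 ± 0.48. Among the 20 lowest differences outside this list, Srgn, the proteoglycan serglycin that packs granzymes, differed by -1.97 ± 0.31, and Cst7, the protease inhibitor cystatin F, by -2.39 ± 0.40. Of the 7 markers of CD8 T and NK cells, 3 were measured and none reached 2-fold (Cd8b1 -0.87, Nkg7 -0.23, Klrd1 0.10). Eomes was above background in Th2 only with a bound below 2-fold, and Cd8a, Ncr1 and Klrb1c were at background in both culture channels. Their part in the result was not tested.

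Costimulatory and TNF family genes were lower in Th9 for 8 of 28 measured members and higher for 2 (median -0.31). Over all measured genes 1.38% were lower and 1.28% were higher. Lilrb4a, an inhibitory immunoglobulin-like receptor, showed the lowest difference of all genes. It had a log2 ratio of 0.00 in Th9, 4.29 in Th2 and -0.56 in iTreg cells (-4.29 ± 0.60, 19.5-fold). Its close copy Lilr4b was above background in Th2 only and at least 4.14-fold lower in Th9. The inhibitory receptor Btla (-1.63 ± 0.32), the CD30 ligand Tnfsf8 (-1.91 ± 0.32), Cd5 (-1.35 ± 0.32), Slamf1 (-1.22 ± 0.36) and Tnfsf14 (-1.04 ± 0.40) were lower as well. Tnfsf10, the death ligand TRAIL, was higher by 1.73 ± 0.38, at -0.19 in Th9 against -1.92 in Th2.

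Interferon-stimulated genes were the list with the most members lower in Th9, 10 of 30 measured and none higher, beside 1.38% lower and 1.28% higher over all measured genes. The median was -0.52, and 28 of the 30 lay below 0. These counts cover the listed genes only. Genes outside the list went both ways: Apol9a, Apol9b and Tnfsf10 were higher in Th9, and Gbp4, Gbp5 (-1.04) and Trim30d (-1.59) were lower. They are examples picked after the values were seen, and unlisted genes were not counted. Ly6a, which encodes Sca-1, had a log2 ratio of -4.15 in Th9, -0.28 in Th2 and -3.58 in iTreg cells (-3.87 ± 0.51, 14.6-fold). Its neighbour Ly6c1 had -5.77 in Th9 and -2.31 in Th2 (-3.47 ± 0.68), but another of its probes differed by only -0.08, so this gene is uncertain. Gbp2, an interferon-induced GTPase, had -2.54 in Th9, -0.41 in Th2 and -1.08 in iTreg cells (-2.13 ± 0.38). Isg15, a ubiquitin-like modifier, had -2.68 in Th9, -1.09 in Th2 and -2.93 in iTreg cells (-1.59 ± 0.40). For these genes Th2 cells were nearer to the naive level. The RNA sensor Ifih1 (-1.75 ± 0.44), Trim30a (-1.66 ± 0.48), Oasl1 (-1.26 ± 0.44), Oas3 (-1.15 ± 0.35), Isg20 (-1.13 ± 0.37) and Gbp3 (-1.04 ± 0.38) completed the set. Anti-IFN-γ was present at 5 µg/ml in Th9 and 2 µg/ml in Th2 medium, and its part in this difference was not tested.

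The promoters of 5 of these genes are shown because they share the core of the interferon-stimulated response element within 120 bases of the start. The sequences are the last 120 bases before the start, on build GRCm38.p6, in the direction of transcription, with capitals at the matches on either strand. They lie at chr4:156200819-156200938 (Isg15, minus strand), chr3:142620543-142620662 (Gbp2, plus), chr3:142559924-142560043 (Gbp3, first of 2 starts, plus), chr5:120777660-120777779 (Oas3, minus) and chr7:104465194-104465313 (Trim30a, first of 2 starts, minus).
Isg15: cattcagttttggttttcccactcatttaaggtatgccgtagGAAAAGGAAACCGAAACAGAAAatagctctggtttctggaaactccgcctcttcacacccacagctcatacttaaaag
Gbp2: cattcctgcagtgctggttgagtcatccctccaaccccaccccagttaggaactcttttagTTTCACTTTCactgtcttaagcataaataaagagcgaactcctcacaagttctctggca
Gbp3: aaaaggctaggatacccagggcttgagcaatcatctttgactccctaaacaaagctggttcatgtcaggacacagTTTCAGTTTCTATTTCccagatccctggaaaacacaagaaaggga
Oas3: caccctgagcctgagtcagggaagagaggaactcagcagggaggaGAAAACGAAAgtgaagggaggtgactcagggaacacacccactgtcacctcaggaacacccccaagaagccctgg
Trim30a: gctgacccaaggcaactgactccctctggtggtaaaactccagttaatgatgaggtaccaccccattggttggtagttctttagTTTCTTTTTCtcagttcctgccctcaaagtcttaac

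In Isg15 the capitals cover 3 overlapping matches, and in Gbp3 they cover 2. Searched over 250 bases and both strands, this core occurred in 5.88% of genes higher in Th9, 14.4% of genes lower in Th9 and 3.16% of all measured genes. Within the lower genes it occurred in 5 of the 9 interferon-stimulated members with a promoter and in 12 of the 109 other genes (11.0%). The gene list itself was drawn from known interferon targets, so its share is not independent of this element.

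Of 26 measured genes for caspases and cell death, 4 were lower and none was higher (median -0.26). Casp4, encoding caspase-11, had log2 ratios of -1.04 in Th9, 1.95 in Th2 and 0.22 in iTreg cells (-2.98 ± 0.36, 7.91-fold). Casp1 (-1.63 ± 0.47) and the pore protein Gsdmd (-1.56 ± 0.43), which these caspases cut, differed too, and Casp6 was the fourth. Others among the 20 lowest were the metalloprotease Adam8 (-2.86 ± 0.39), Akr1b8 (-2.22 ± 0.47), Kremen2 (-2.22 ± 0.39), Sema4f (-2.31 ± 0.33), Tmem140 (-2.46 ± 0.38), Tmem229b (-2.05 ± 0.46), Phf11a (-1.96 ± 0.44), Phf11b (-1.98 ± 0.41) and Gbp4 (-1.93 ± 0.68).

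Genes of the naive state and of trafficking were 2 higher and 4 lower of 26 measured (median 0.13). Klf2, a factor that keeps T cells quiescent, had log2 ratios of -3.83 in Th9 and -4.91 in Th2 (1.08 ± 0.66), and Rgs1, a brake on chemokine receptors, had 3.13 in Th9 and 1.72 in Th2 (1.40 ± 0.45). Il7r, the IL-7 receptor gene, was lower in Th9, at -4.61 against -3.10 in Th2 (-1.51 ± 0.62). Satb1, Btla and Id3 were the other lower members. Of 14 measured chemokine receptors and related genes, Ccr6 and P2ry10 (1.11 ± 0.30) were higher and the prostaglandin receptor Ptger2 was lower (-1.56 ± 0.50). The early activation genes Egr1 (-1.45 ± 0.31), Egr2 (-1.27 ± 0.30) and Dusp2 (-1.04 ± 0.42) were lower and Dusp4 was higher (1.48 ± 0.92), of 40 genes of T cell receptor signalling.

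None of 31 mitosis genes (median 0.20, 30 of them above 0), 30 replication genes (0.08), 23 glycolysis genes (-0.12), 25 cholesterol genes (0.01) or 36 oxidative phosphorylation genes (0.04) passed 2-fold in either direction. The largest differences in these lists were Bub1 (0.58) for mitosis and Ndufa1 (0.85) for oxidative phosphorylation. Of 19 measured genes of the ATF4 amino acid and one-carbon programme none passed 2-fold either (median -0.32), but Cth (-1.33 ± 0.89) and Chac1 (-1.22 ± 0.98) were at least 2-fold lower in Th9 by their Cy5 signals, though not by their ratios (-0.80 and -0.92).

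**Figure D5:**
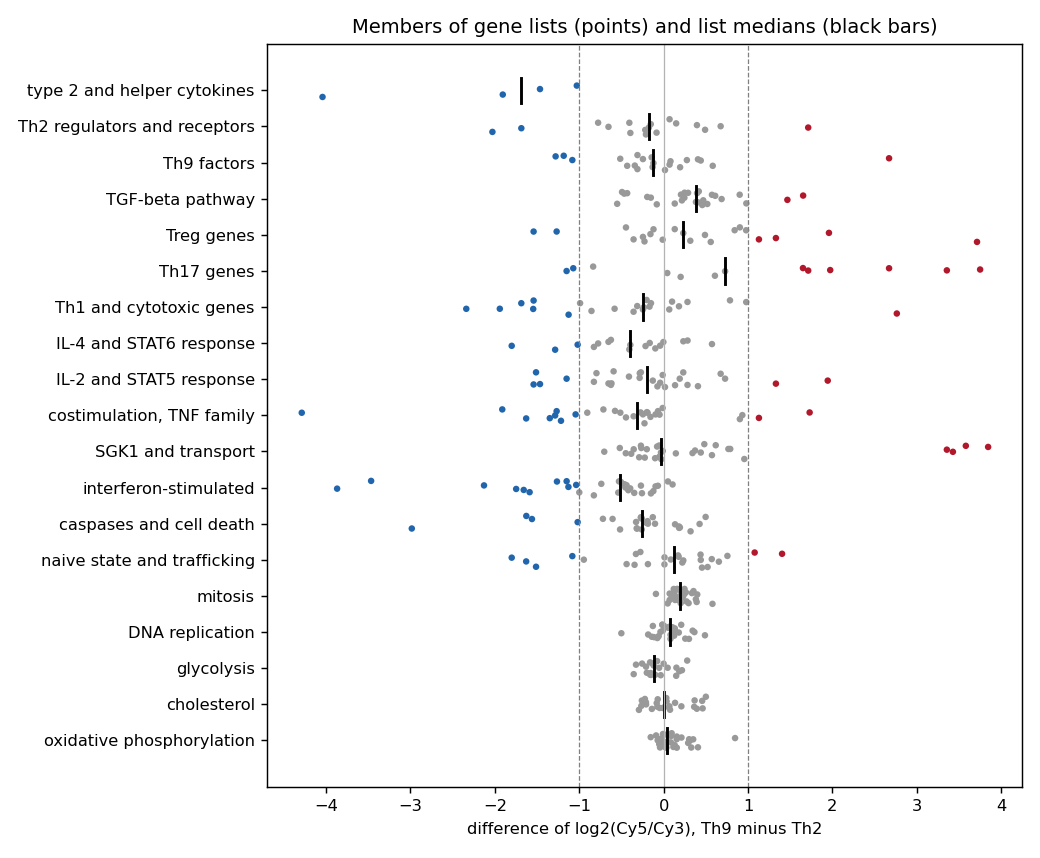
Difference of log2(Cy5/Cy3), Th9 minus Th2, for the measured members of 19 gene lists (points; red at least 2-fold higher in Th9, blue at least 2-fold lower), with the list median as a black bar and 2-fold as dashed lines. The interferon-stimulated and costimulation lists spread to the left, the Th17 list to the right, and mitosis to oxidative phosphorylation stay within 2-fold.

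Among the 551 genes with a naive channel at background, 23 (4.17%) were at least 2-fold higher in Th9 by their Cy5 signals and 29 (5.26%) were lower. After Il9, the highest were Tff1, a secreted trefoil peptide (3.39 ± 0.89), the phospholipase gene Pla1a (3.16 ± 0.98), Fbln2 (2.50), Wtip (2.09), Mpzl2 (2.02) and Procr (2.00), followed by Crispld2, Ankrd33b and Cdhr3 (1.76 to 1.88). Tff1 had a raw Cy5 intensity of 1505 in Th9, 127 in Th2 and 1419 in iTreg cells. After Il13, the lower genes included Mgll, which breaks down the lipid 2-arachidonoylglycerol (-2.98 ± 0.83), Slc13a3 (-2.41), Timd2 (-2.23), Tgm1 (-2.04), Col18a1 (-1.82) and Cox6a2 (-1.75), with Serpinf1 below them all at -4.03 ± 0.76. Serpinf1 had a raw Cy5 intensity of 685 in Th9, 12838 in Th2 and 135 in iTreg cells. Its naive Cy3 intensity was 73 on the Th9 array and 244 on the Th2 array, so the dim channel moved with the bright one, and its ratio against naive differed by -2.34. Timd2 reached only -0.80 by its ratios, short of 2-fold. The naive channel moved by over 0.5 log2 units in the same direction for 5 of the 23 higher and 7 of the 29 lower genes.

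A further 321 genes were above background in Th9 cells only, of which 73 (22.7%) had a bound of at least 2-fold, and 638 were above it in Th2 only, of which 62 (9.72%) did. In 41 of the 73 and 41 of the 62, the naive channel of the same spot also moved by over 0.5 log2 units in the same direction, so that both dyes shifted together. Of the 10 highest bounds in Th9, the naive channel was steady for Krt81 (at least 6.32-fold), Avpr1a (5.92), Tmem176a (4.65), Ldlrad4 (4.50), Myo1e (3.95), Tmem273 (3.95) and Pdpn (3.69), and moved for Slco4a1, Rab3a and Chl1. Of the 10 in Th2, it was steady for Il21, Gbp8 (at least 4.78-fold lower in Th9), Lilr4b, Slamf7 (3.07) and Cxcr1 (2.82), and moved for Spata48, Syna, Lhx1, Fbxw21 and Lrrc72.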

How the data were processed

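RNA of 3 polarised cultures (Cy5) was hybridised with naive CD4 T cell RNA (Cy3) on 3 Agilent 2-colour arrays of 1 slide, without dye swap, so that array position and culture cannot be told apart. Per the labels, 0.2 µg of total RNA was labelled. The deposited scanner files give, per the file headers, median spot and background intensity of each dye. Their headers name Agilent Feature Extraction 11.0.1.1, and 9.3.2.1 is the version in the submitters' processing notes. Further columns, per the file headers, hold processed intensity, the log10 of the Cy5 to Cy3 ratio, the software's log10 error of it, and a p-value for error inside a single array. The authors' deposited series values are, as compared with the scanner files, the log2 ratio of processed intensities plus 1 constant per array (0.021 for Th9, 0.056 for Th2), within 0.001 for 99.3% of probes each.

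Median intensities were background-corrected with normexp (offset 50) and normalised by loess within arrays, and mean intensities were scaled by quantiles between arrays (limma 3.58.1, R 4.3.3). Control and outlier spots had no weight, and outlier spots were dropped. Per array, 43020 gene spots were read, 48.9% (Th9) and 50.5% (Th2) of them well above background in the culture channel and 53.4% and 53.0% in the naive channel, with none saturated. The SD over spots of replicated probes had a median of 0.052 (Th9) and 0.050 (Th2) log2 units. With 1 array per culture, the number of arrays limits the precision. Probes were named by RefSeq accession (26049 of 39429, 66.1%), and the brightest probe was used for the 5268 genes with several. Of the called genes with another measured probe, 23 of 24 higher and 16 of 16 lower ones had it in the same direction, and 10 and 9 of them had every such probe past 2-fold. In a bound, the culture at background was set to the higher of its own signal and the lowest signal well above background. Fewer cells of a type and less RNA per cell cannot be told apart. A gene-specific dye effect cancels between the cultures.

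In simulated arrays (18447 probes), the Th2 array was set against a copy of itself with assumed noise (SD 0.15 log2 units per channel). Known changes were put on bright probes only, 50 for each size and direction. The size rule called 100% of true 4-fold differences in each direction and 0% of unchanged probes. It called 32% of true 2-fold higher and 24% of true 2-fold lower ones. These shares follow from those settings. Changes in dim genes and variation between cultures were not simulated. The members and gene lists were chosen with earlier results of these data known. Genes named are the listed lineage genes past 2-fold with their defining members, the 20 highest and 20 lowest differences, the 10 highest bounds and direct Cy5 differences in each direction, and extremes of other lists. Other genes were chosen after their values were seen. Some genes that this rule takes are not reported here. Alternatives were median centring, processed signals, the series values, offset 16, no filter, direct Cy5 differences, the mean over probes, and outlier spots kept. Tables were made with Python 3.11.15 and pandas 2.3.3.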

Additional observations from a re-analysis of the deposited data

How the results depend on the processing

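No paired analysis was possible because each culture has 1 array. Of the genes at least 2-fold apart, 134 were higher and 144 lower in Th9. Under median centring the counts were 102 and 244, so that 29.5% of the called genes were higher in place of 48.2%, and the median over all genes moved to -0.23. Under the deposited series values they were 181 higher and 235 lower. Under the other alternatives the counts lay within 1.5 times the values given. All 144 lower genes stayed past 2-fold under median centring, and 102 of the 134 higher ones did. Of 95 named genes past 2-fold, Klf2, P2ry10 and Tnfrsf1b fell short under median centring, Casp6 under processed signals, Il24 under direct Cy5 differences and Il12rb1 under the mean over probes, and the cause was not tested. Medians of lists such as mitosis (0.20, but -0.03 under median centring) are to be read against the median of all genes. Genes compared by Cy5 alone have no value under processed signals or series values. By the difference of their ratios against naive, an alternative chosen after seeing the data, 19 of the 23 higher and 20 of the 29 lower ones also reached 2-fold, and among those named Il5 (-0.67), Timd2 (-0.80), Cth (-0.80) and Chac1 (-0.92) did not. Leaving out an array would leave no comparison.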

Other observations

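Of the 13380 probes that matched no gene in the RefSeq table, 4074 were measured in both channels of both arrays. Of these, 10 were at least 2-fold higher in Th9 (0.245%) and 32 were at least 2-fold lower (0.785%), with differences between -3.09 and 2.25.

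Other letters were also counted in the same 250-base promoters. AGATAA, bound by GATA factors, occurred in 17.6% of genes higher in Th9, 11.9% of genes lower in Th9 and 7.55% of all measured genes, while TGANTCA, bound by AP-1 factors, occurred in 10.8%, 12.7% and 5.05% of the same sets. The STAT5 consensus occurred in 10.8%, 5.08% and 7.36% of them, TNGCGTG, bound by the aryl hydrocarbon receptor, in 5.88%, 5.08% and 7.98%, and GGAAAA, bound by NFAT, in 27.5%, 28.0% and 21.0%. A longer, palindromic SMAD element occurred in 0% of genes higher in Th9, 0% of genes lower in Th9 and 0.272% of all measured genes. Either strand was counted, and no cause was tested.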
